A study of Mus musculus with 21 samples.

Results

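The genes described here are 7 integrin chains and 1 integrin ligand of spleen T cells, namely Itgal, Itgb2, Itga4, Itgb7, Itgb1, Itga6, Itgae and Icam2. They were chosen by name, and all 8 were among the 12994 genes of the expression table. The study compared T cells of female C57BL6/J mice housed in an enriched environment (EE) or a standard environment (SE). Cells of dissociated spleen were sorted by flow cytometry, as CD45+, CD11b-, CD3+ cells carrying CD4 or CD8, and their RNA was sequenced with unique molecular identifiers (UMIs). The table held 6 CD4+ EE, 5 CD4+ SE, 6 CD8+ EE and 4 CD8+ SE samples, from 12 mice, of which 6 EE and 3 SE mice gave both populations. EE mice were housed from 4 weeks of age, for 4 weeks, as 12 to 15 animals in a cage of 9120 cm2, and SE mice for the same time as 5 to 6 animals in 666 cm2. The labels name no transgene and no agent for these mice. The labels place all animals of a housing in 1 cage, so cage and housing cannot be told apart, and p-values between housings measure only the spread between mice of these cages. Values are normalized counts: the UMI molecules seen for a gene, scaled by the DESeq2 size factor of that library.

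Integrins are cell-surface receptors made of an alpha and a beta chain, which must pair to reach the membrane. In T cells they hold the cell to vessel wall, to other leukocytes and to matrix, and chemokine or antigen receptor signals switch them from a bent to an extended form that binds ligand strongly. The chains share partners. Itgal with Itgb2 forms LFA-1, which binds the ICAM family. Itga4 pairs either with Itgb7, giving the receptor for the gut addressin MAdCAM, or with Itgb1, giving the receptor VLA-4 for VCAM and fibronectin. Itgb1 also pairs with Itga6 to bind laminin, and Itgb7 pairs with Itgae, whose product is CD103, to form the receptor for E-cadherin.

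Itga4 and both of its beta partners had an entry in the RefSeq promoter table (build GRCm38.p6), 3 of the 8 genes. The 250 bases before the start that RefSeq gives each gene are shown (for Itgb7 the last of them lie within the GENCODE span of the gene given further on), because Itgb1 differed between the populations while its partner Itga4 and the other beta chain, Itgb7, did not pass the test. Capitals mark matches to a GC box (GGGCGG) or to a RUNX motif (TGTGGT), searched on both strands along with an ETS motif (CGGAAG) and a TATA box (TATAAA).
Itga4, chr2:79255176-79255425, plus strand: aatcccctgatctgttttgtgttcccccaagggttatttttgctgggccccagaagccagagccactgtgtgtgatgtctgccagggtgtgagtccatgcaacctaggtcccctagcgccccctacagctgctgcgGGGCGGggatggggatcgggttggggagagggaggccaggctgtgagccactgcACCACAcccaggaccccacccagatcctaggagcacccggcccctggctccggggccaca
Itgb7, chr15:102231936-102232185, minus strand: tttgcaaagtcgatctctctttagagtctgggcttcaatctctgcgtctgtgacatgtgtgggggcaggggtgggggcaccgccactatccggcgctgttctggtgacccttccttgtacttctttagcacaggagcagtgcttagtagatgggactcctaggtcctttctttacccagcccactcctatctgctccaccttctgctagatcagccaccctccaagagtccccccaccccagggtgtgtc
Itgb1, chr8:128685404-128685653, plus strand: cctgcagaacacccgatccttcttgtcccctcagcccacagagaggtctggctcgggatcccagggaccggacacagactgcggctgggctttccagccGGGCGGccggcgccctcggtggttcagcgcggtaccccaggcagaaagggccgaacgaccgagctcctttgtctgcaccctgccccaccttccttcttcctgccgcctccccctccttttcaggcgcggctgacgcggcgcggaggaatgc
The windows of Itga4 and Itgb1 each held a GC box, which 32.7% of 32851 promoters of the same length hold. That of Itga4 also held a RUNX motif on the reverse strand, a motif present in 14.0% of promoters. None of the 4 motifs was in the Itgb7 window, and ETS and TATA matches occurred in 13.6% and 12.4% of promoters. The GC content was 64.0% for Itga4, 68.0% for Itgb1 and 56.0% for Itgb7, against a median of 52.4%. A match is a description of letters, not evidence of a bound site.

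Markers of T cells and of their CD4 or CD8 class went with the sort, while some libraries also held RNA of B-cell or red-cell genes. Summed T-cell markers (6 of 6 in the table) ran from 458 to 622 normalized counts over all samples. Summed markers of CD4 T cells (Cd4, Zbtb7b, Cd40lg) ran from 79.1 to 124 normalized counts in CD4+ samples and from 0 to 2.79 in CD8+ samples, while Cd8a and Cd8b1 together ran from 275 to 337 in CD8+ and from 1.26 to 9.15 in CD4+ samples. Samples held 145546 to 221454 molecules. All 6 B-cell markers were in the table, and their sum ran from 14.4 over a median of 177 to 308 in CD4+ samples and from 0.931 to 53.2 in CD8+ samples. The largest means in CD4+ samples were those of Cd74 (110) and H2-Aa (32.6), which made up most of the sum. Ms4a1, which marks B cells, was at 0 in every CD8+ sample and averaged 3.13 in CD4+ samples. Cd79b was seen in every CD8+ sample, averaged 5.92 there against 9.55 in CD4+ samples, and was not called (0.58, limma adjusted p = 0.408). The 3 red-cell markers summed to 397 in CD8+ EE replicate 6 and 802 in CD8+ SE replicate 3, and to at most 18.02 in every other library. Myeloid markers summed to 11.4 to 62.2 over all samples, NK cell markers (2 of 4 in the table) to at most 4.85, and platelet markers (2 of 4 in the table) to less.

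Between CD4+ and CD8+ cells, Itgb1 was higher in CD4+ cells and Itgae was higher in CD8+ cells, and the other 6 genes did not pass the test. Thus 2 of 8 genes were called, 1 in each direction, beside 4.4% of the 7938 genes tested (limma over all genes, Benjamini-Hochberg adjusted p under 0.05). The median log2 difference was 0.14 over the 8 genes and -0.01 over all genes tested. Itgae was the only one of the 8 whose CD4+ and CD8+ samples did not overlap at all, which held for 0.869% of genes tested.

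**Figure D1:**
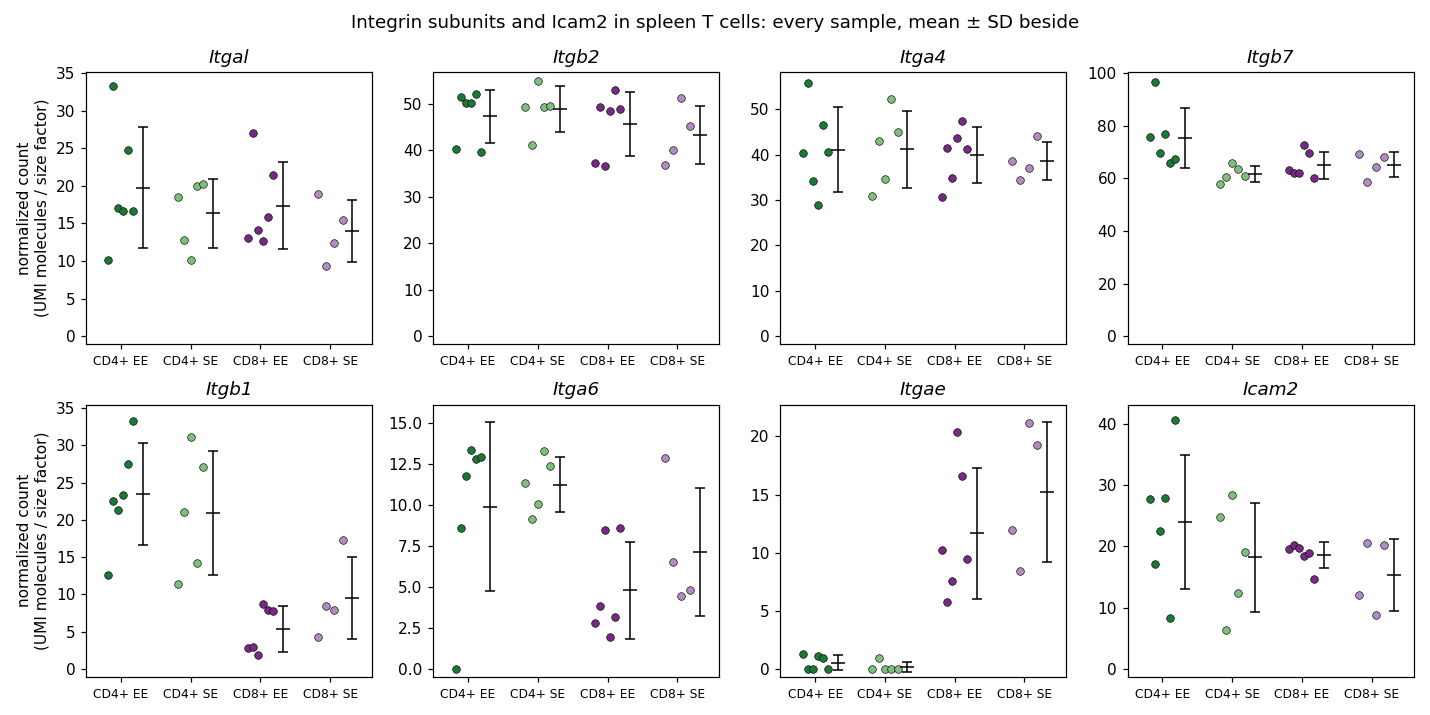
Normalized counts (UMI molecules divided by the size factor, y axis) of the 8 genes in every CD4+ EE (n = 6), CD4+ SE (n = 5), CD8+ EE (n = 6) and CD8+ SE (n = 4) sample; points are samples, and the bar beside each group is its mean ± SD. Itgae lies at or below 1.26 in every CD4+ sample and at or above 5.80 in every CD8+ sample, Itgb1 is mostly higher in CD4+ samples, and the 4 groups overlap for Itgal, Itgb2, Itga4 and Icam2. For Itga6 every CD4+ SE sample, from 9.15, is above every CD8+ EE sample, up to 8.59.

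Itgb1 (8:128685654-128733200, plus strand, GRCm38) encodes the beta1 chain, the partner shared by the VLA integrins. In CD4+ EE samples its normalized count had a lowest value of 12.6, a median of 23.0 and a highest value of 33.2. In CD4+ SE samples it was 11.3, 14.2, 21.0, 27.0 and 31.1. In CD8+ EE samples the lowest value was 1.88, the median 5.31 and the highest 8.74. In CD8+ SE samples it was 4.28, 7.95, 8.38 and 17.3. Every CD4+ sample was thus above every CD8+ sample but 1, CD8+ SE replicate 6, which exceeded 3 CD4+ samples. The log2 difference was 1.59 (SE 0.24, 95% interval 1.11 to 2.07, limma adjusted p = 8.7e-07), with means of 22.3 ± 7.26 (SD, n = 11) and 6.99 ± 4.49 (n = 10). In the 9 mice with both populations Itgb1 was higher in CD4+ cells of 9, by 7.04 to 25.5 normalized counts.

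Within EE, the log2 difference of Itgb1 was 2.06 (SE 0.31, limma adjusted p = 1.8e-06), and the 6 CD4+ samples lay above all 6 CD8+ samples. Within SE it was 1.12 (SE 0.36, 95% interval 0.40 to 1.84), with an unadjusted p of 0.0029 and an adjusted p of 0.131, so the call was not made there. Leaving out CD8+ SE replicate 6 brought the SE value to 1.44 with an adjusted p of 0.0355. The label of that library ends in a number outside the run of the other labels, and no reason is given in the sources used here. The difference between housings itself, tested as an interaction, was 0.94 (SE 0.48, limma adjusted p = 0.994, unadjusted 0.0525). Of the genes tested, 2.66% were called within EE and 1.51% within SE.

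The mean levels of Itgb1 stood in the order CD4+ EE (23.4), CD4+ SE (20.9), CD8+ SE (9.48) and CD8+ EE (5.32). No neighbouring pair in that order passed the test. B-cell markers moved with the populations, with the sums given above. With the B-cell marker sum as a term in the fit, a choice made after seeing the data, the Itgb1 difference was 0.87 over both housings (SE 0.52, limma adjusted p = 0.725), 1.39 within EE (adjusted p = 0.352) and 0.34 within SE (SE 0.61, adjusted p = 0.975), while 43 genes were called over both housings. The part of B-cell RNA in the Itgb1 result was not tested further, and in bulk samples fewer cells of a type cannot be told apart from less RNA per cell. Regulatory T-cell markers (5 of 5 in the table) summed to 18.4 to 70.8 in CD4+ and 12.6 to 23.3 in CD8+ samples. Of these, Ctla4 was higher in CD4+ cells without overlap (2.64, limma adjusted p = 4.8e-08), Foxp3 gave 28 molecules in CD4+ and 1 in CD8+ samples, and Tnfrsf18 was at 0.14 (limma adjusted p = 0.852). Markers of antigen-experienced T cells (6 of 6 in the table) summed to 18.5 to 217 in CD4+ and 11.2 to 192 in CD8+ samples, and 3 of them were higher in CD4+ cells, S100a6 by 2.86, S100a4 by 2.57 and Cd44 by 1.49 on the log2 scale (limma adjusted p = 8.2e-09, 1.1e-05 and 8.5e-04). The other 3 did not pass, with Cxcr3 at 0.69, Ccl5 at -0.44 and Il2rb at -0.71, and the median sums were 78.6 in CD4+ and 78.9 in CD8+ samples. The part of either list in the Itgb1 result was not tested. Without both libraries rich in red-cell RNA, the value was 1.64 and the call stayed.

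Itgae (11:73090583-73147446, plus strand) encodes CD103, the alpha chain by which T cells bind epithelium, and overlaps Haspin on the opposite strand, which was not analysed here. In the CD4+ EE samples 3 of 6 had 1 molecule and the others none, with a highest normalized count of 1.26. Of the 5 CD4+ SE samples, 1 had a single molecule. In CD8+ EE samples the lowest normalized count was 5.80, the median 9.84 and the highest 20.4. In CD8+ SE samples it was 8.38, 12.0, 19.2 and 21.2. No CD4+ sample reached a CD8+ sample. The log2(value + 1) difference was -3.38 (SE 0.34, 95% interval -4.05 to -2.71, limma adjusted p = 2.7e-12), a scale that understates changes of genes near 0.

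Counted as molecules, Itgae gave 145 in CD8+ samples and 4 in CD4+ samples. Per total molecules sequenced, that is 35.0 times more in CD8+ cells, with an exact 95% interval of 13.4 to 130 that covers counting error only. Within EE the counts were 78 and 3, and the ratio was 22.1 (7.29 to 109). Within SE they were 67 and 1, and the ratio was 76.5 (13.3 to 3068). The limma differences within EE and within SE were -3.02 and -3.75, both past the threshold (adjusted p = 6.9e-07 and 1.5e-07). In the 9 mice with both populations the CD8+ sample was higher in 9, and the call remained with the B-cell term (-3.74, adjusted p = 0.0015). The group means fell in the order CD8+ SE (15.2), CD8+ EE (11.7), CD4+ EE (0.548) and CD4+ SE (0.183), and within each population the neighbours overlapped.

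**Figure D2:**
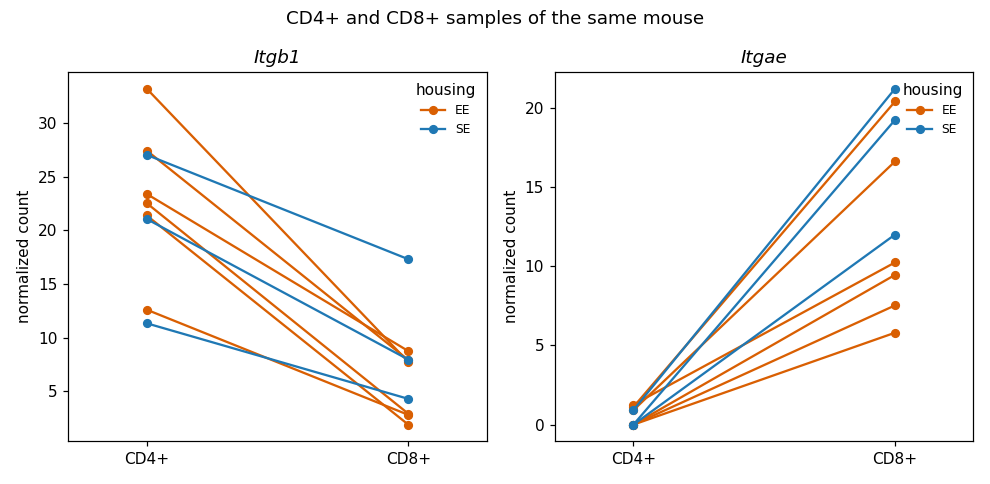
Normalized counts of Itgb1 and Itgae (y axis) in the CD4+ and CD8+ samples of the 9 mice with both, each line 1 mouse, coloured by housing (6 EE, 3 SE). All 9 lines fall from CD4+ to CD8+ for Itgb1, and all 9 rise for Itgae.

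The genes whose pattern over the 21 samples was most like that of Itgb1, by Pearson r of log2(value + 1) among 2727 genes with a mean above 10, were Cd4 (r = 0.813), Cd40lg (0.788) and Ass1 (0.787). Those most like Itgae were Cd8b1 (0.937), Cd8a (0.921) and Dnajc15 (0.914). The points fall into 2 populations that differ in depth and in these genes, so r is a description and has no test.

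Itgb7 (15:102215995-102231944, minus strand) encodes the beta7 chain of the gut-homing integrin and of the E-cadherin receptor. Its normalized count had a lowest value of 65.8, a median of 72.5 and a highest value of 96.5 in CD4+ EE samples. In CD4+ SE samples it was 57.7, 60.4, 60.8, 63.6 and 65.8. In CD8+ EE samples it ran from 60.1 over a median of 62.7 to 72.8. In CD8+ SE samples it was 58.7, 64.5, 68.2 and 69.4. The populations overlapped, with 3 of 11 CD4+ samples above every CD8+ sample, and the difference of 0.06 (SE 0.10, 95% interval -0.14 to 0.26, limma adjusted p = 0.842) was smaller than its error. While Itgae, the alpha partner of Itgb7 in the E-cadherin receptor, gave 4 molecules over all CD4+ samples, Itgb7 was at 57.7 or more in each of them.

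Itga4 (2:79255426-79333123, plus strand), the alpha chain that Itgb7 and Itgb1 share, ran from 29.0 over a median of 40.4 to 55.8 in CD4+ EE samples and was 30.9, 34.7, 43.0, 45.0 and 52.2 in CD4+ SE samples. In CD8+ EE samples it ran from 30.7 over a median of 41.4 to 47.4. In CD8+ SE samples it was 34.5, 37.1, 38.5 and 44.2. All groups overlapped, with means of 41.1 ± 8.55 (SD, n = 11) in CD4+ and 39.4 ± 5.18 (n = 10) in CD8+ cells and a log2 difference of 0.05 (95% interval -0.21 to 0.31, limma adjusted p = 0.916), which turned negative (-0.29) with the B-cell term. Itga4 overlaps Cerkl on the opposite strand, which was at a mean of 0.357 normalized counts; whether counting used strand is not given in the sources used here.

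Because a ratio within a sample does not depend on how that sample was scaled, the molecules of both beta chains were also set against each other. Itgb7 made up 76.2% ± 6.80 (SD, n = 6) of Itgb7 plus Itgb1 molecules in CD4+ EE and 75.3% ± 7.11 (n = 5) in CD4+ SE samples. In CD8+ EE it made up 92.7% ± 3.83 (n = 6) and in CD8+ SE 87.6% ± 5.96 (n = 4). The lowest CD8+ share, 79.8% in SE replicate 6, lay within the CD4+ range of 67.0% to 85.7%, and the next lowest CD8+ share was 87.5%. The shares are given as a description with no test, and they count molecules without a correction for transcript length.

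**Figure D3:**
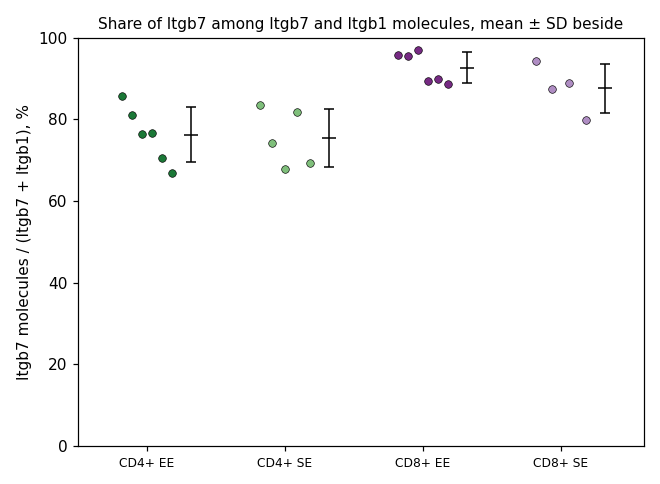
Itgb7 molecules as a percentage of Itgb7 plus Itgb1 molecules (y axis from 0 to 100%) in each sample of the 4 groups, with the mean ± SD beside. All CD8+ samples but 1, at 79.8%, lie above the highest CD4+ sample, at 85.7%.

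Neither chain of LFA-1 passed the test between populations. Itgal (7:127296260-127335138, plus strand), the alpha chain of LFA-1, ran from 10.1 over a median of 16.9 to 33.3 in CD4+ EE and was 10.1, 12.8, 18.5, 19.9 and 20.3 in CD4+ SE samples. It ran from 12.6 over a median of 15.0 to 27.1 in CD8+ EE and was 9.31, 12.4, 15.4 and 18.8 in CD8+ SE samples. The highest EE sample of either population was replicate 2, from the same mouse. Its log2 difference between populations was 0.17 (SE 0.19, 95% interval -0.22 to 0.56, limma adjusted p = 0.760).

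Itgb2 (10:77530252-77565708, plus strand), the beta chain of LFA-1, ran from 39.7 over a median of 50.2 to 52.1 in CD4+ EE and was 41.2, 49.4, 49.4, 49.6 and 54.9 in CD4+ SE samples. It ran from 36.7 over a median of 48.7 to 53.0 in CD8+ EE and was 36.8, 40.0, 45.2 and 51.2 in CD8+ SE samples. The difference was 0.12 (SE 0.12, 95% interval -0.12 to 0.35, limma adjusted p = 0.723). The interval leaves room for a small difference in either direction.

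Icam2 (11:106377656-106388075, minus strand), a ligand of LFA-1 carried by leukocytes and endothelium, varied widely in CD4+ cells. It ran from 8.23 over a median of 25.1 to 40.6 in CD4+ EE and was 6.41, 12.3, 19.1, 24.7 and 28.3 in CD4+ SE samples. It ran from 14.6 over a median of 19.3 to 20.3 in CD8+ EE and was 8.83, 12.0, 20.2 and 20.5 in CD8+ SE samples. Of the 11 CD4+ samples, 6 lay above every CD8+ sample and 2 below every CD8+ sample, and the difference of 0.18 (SE 0.21, 95% interval -0.24 to 0.60) did not pass the test (limma adjusted p = 0.770). It was 0.99 (SE 0.45, limma adjusted p = 0.521) with the B-cell term, 0.04 without both red-cell libraries and 0.07 to 0.33 with each sample left out.

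Itga6 (2:71745616-71858416, plus strand) encodes the alpha chain of the laminin receptor. It ran from 0 over a median of 12.3 to 13.4 in CD4+ EE and was 9.15, 10.1, 11.3, 12.4 and 13.3 in CD4+ SE samples. It ran from 1.94 over a median of 3.51 to 8.59 in CD8+ EE and was 4.42, 4.81, 6.52 and 12.8 in CD8+ SE samples. The CD4+ values sat near the top of the CD8+ range apart from 1 sample, EE replicate 1, with no Itga6 molecule. The difference was 0.68 (SE 0.32, 95% interval 0.04 to 1.32) and did not pass the test (limma adjusted p = 0.295, unadjusted 0.0382). Without CD4+ EE replicate 1, it was 0.98 with an adjusted p of 0.0105, so that 1 library decided the call.

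**Figure D4:**
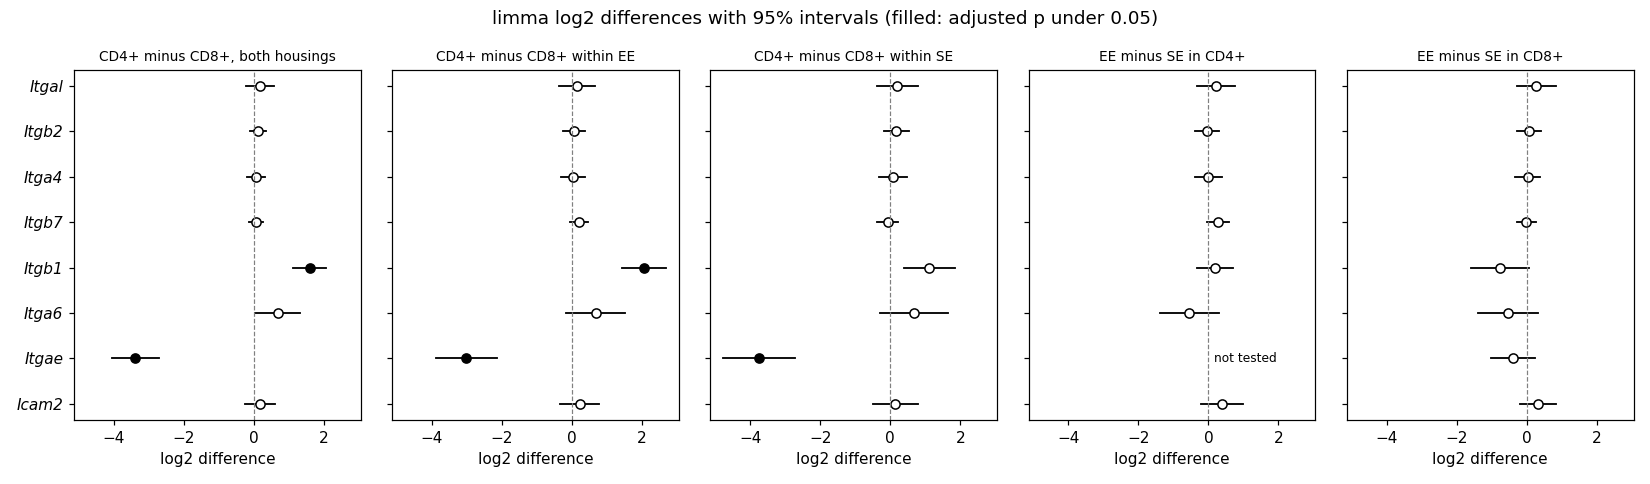
Log2 differences of the 8 genes (x axis, on the log2(normalized count + 1) scale) with 95% intervals from limma, for CD4+ minus CD8+ over both housings, within EE and within SE, and for EE minus SE in CD4+ and in CD8+ cells; filled points passed an adjusted p of 0.05. Itgb1 and Itgae are filled over both housings and within EE, Itgae alone within SE, and no point is filled between EE and SE.

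Between EE and SE, none of the 7 genes tested in CD4+ cells and none of the 8 tested in CD8+ cells was called, beside 0.0126% of genes called in CD4+ cells (1 of 7939, limma and DESeq2, and 2 with edgeR) and 0% in CD8+ cells (0, by limma over 7840 genes, edgeR or DESeq2). At an unadjusted p under 0.05 stood 462 genes in CD4+ and 413 in CD8+ cells, none of the 8 among them, and edgeR and DESeq2 also called none of the 8. The interaction of housing and population called none of the 8 and 0% of genes (0, by limma over 7938 genes, edgeR or DESeq2, with 393 at an unadjusted p under 0.05).

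In CD4+ cells, Itgb7 was the only one of the 8 whose housings did not overlap, which held for 0.453% of genes in CD4+ and 1.06% in CD8+ cells. Its 6 EE values, from 65.8, lay above the 5 SE values, up to 65.8. The closest pair, EE replicate 5 and SE replicate 4, held 72 molecules each and was set apart only by the scaling. The difference was 0.27 (SE 0.15, 95% interval -0.03 to 0.58, limma adjusted p = 0.855). Icam2 differed by 0.40 (95% interval -0.20 to 1.00), Itgal by 0.22 (-0.33 to 0.76) and Itgb1 by 0.19 (-0.32 to 0.70). Itga6 was at -0.54 (-1.39 to 0.31), a value that was 0.07 without EE replicate 1. Itgb2 was at -0.05 (-0.39 to 0.29) and Itga4 at -0.01 (-0.39 to 0.37). Itgae averaged under 2 normalized counts in CD4+ cells and was not tested there.

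In CD8+ cells the largest housing difference was that of Itgb1, at -0.75 (SE 0.41, 95% interval -1.58 to 0.08, limma adjusted p = 0.962, unadjusted 0.0748). The highest SE sample, 17.3, was replicate 6, and without it the difference was -0.43. Itga6 was at -0.53 (-1.38 to 0.32) and Itgae at -0.39 (-1.02 to 0.25). Icam2 was at 0.33 (-0.19 to 0.85) and Itgal at 0.28 (-0.26 to 0.83). Itgb2, Itga4 and Itgb7 lay between -0.01 and 0.07. The intervals of Itgb1 and Itgae in CD8+ cells, of Icam2 in CD4+ cells and of Itga6 in both populations reached a change of 1 log2 unit or more, while no bound of Itgb2, Itga4 or Itgb7 in either population lay farther from 0 than the 0.58 of Itgb7 in CD4+ cells. The markers of antigen-experienced T cells summed to 69.5 to 217 in CD4+ EE and 18.5 to 103 in CD4+ SE samples, and to 30.1 to 192 in CD8+ EE and 11.2 to 130 in CD8+ SE samples. In CD4+ cells S100a6 of this list was the 1 gene called between housings (1.46, SE 0.28, limma adjusted p = 0.0178, no overlap). That call was lost under several alternatives, given further below. S100a4 (1.37), Ccl5 (1.80) and Il2rb (0.86) had an unadjusted limma p under 0.05, while Cxcr3 (0.56) and Cd44 (-0.20) did not. In CD8+ cells no marker of the list was called, and Ccl5 (1.96) and Il2rb (0.60) had an unadjusted limma p under 0.05. There S100a6 (-0.39), Cxcr3 (-0.06) and Cd44 (-0.03) did not, and S100a4 was not tested. The part of these markers in the housing values of the 8 genes was not tested.

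Around these genes, the machinery of integrin adhesion was compared by 4 lists. Of 20 other integrin subunits, 6 were in the table and 2 passed the filter. The others in the table were not tested, and the 14 not in the table were not analysed here. Of the 2 tested, 1 was called, beside 4.4% of all genes tested. Itgb3, the beta chain that pairs with Itgav on many cells and with Itga2b on platelets, was higher in CD4+ cells. It ran from 5.04 over a median of 16.9 to 22.8 normalized counts in 11 CD4+ samples and from 0 over 3.79 to 5.77 in 10 CD8+ samples. Of the CD4+ samples, 10 lay above every CD8+ sample, with a log2 difference of 1.94 (SE 0.29, limma adjusted p = 1.0e-06). Of its alpha partners, Itgav averaged 3.08 and 2.90 normalized counts (0.10, limma adjusted p = 0.945), and Itga2b gave 2 molecules over all CD4+ and 3 over all CD8+ samples.

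Among 13 ligands and adhesion partners, 6 were in the table and 4 were tested, and 3 were called, all lower in CD4+ than in CD8+ cells, beside the same 4.4% of all genes tested in either direction. Cd226, an activating receptor that associates with LFA-1, ran from 1.07 over a median of 2.75 to 6.40 in CD4+ and from 7.95 to 21.3 in CD8+ samples without overlap (-1.92, SE 0.27, limma adjusted p = 2.0e-07). Thy1, a surface glycoprotein that can bind integrins, ran from 32.9 to 50.7 and from 58.2 to 67.3, also without overlap (-0.54, SE 0.11, adjusted p = 6.0e-04). Icam1, a ligand of LFA-1, had a median of 5.15 and a range of 0 to 13.9 in CD4+ samples and a median of 7.75 and a range of 3.53 to 16.9 in CD8+ samples. Its difference of -1.30 (limma adjusted p = 0.0264) was not called by edgeR (adjusted p = 0.0900) or DESeq2 (0.117) and stayed called in 14 of 21 fits that left out 1 sample. Cd47, which associates with integrins, was at -0.01 (limma adjusted p = 0.990).

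Of 23 genes of inside-out activation, the signalling that opens integrins, 22 were in the table and tested, 2 were called (4.4% of all genes tested were) and both were higher in CD4+ cells. Cytip, which binds cytohesin and restrains LFA-1, ran from 64.1 to 83.7 in CD4+ and from 25.1 to 56.7 in CD8+ samples without overlap (0.77, SE 0.12, limma adjusted p = 1.5e-06). Flna, a filamin that competes with talin for beta tails, averaged 40.3 ± 8.68 (SD, n = 11) and 27.5 ± 5.52 (n = 10), with a difference of 0.53 (SE 0.14, limma adjusted p = 0.0154) that fell short of the call (0.47, adjusted p = 0.0546) without CD4+ SE replicate 3. The other 20, talin (Tln1) and kindlin (Fermt3) included, did not pass. The median difference over the 22 was 0.11.

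Of 24 genes linking integrins to the cytoskeleton and to kinases, 21 were in the table, 20 were tested and 2 were called, beside the same 4.4%. Fyn, a Src family kinase, ran from 45.3 to 66.5 in CD4+ and from 27.9 to 45.1 in CD8+ samples without overlap (0.52, SE 0.12, limma adjusted p = 0.0019). Zyx, a protein of focal adhesions, was lower in CD4+ cells, at 11.5 ± 4.18 (SD, n = 11) against 20.2 ± 4.86 (n = 10), by -0.76 (SE 0.19, limma adjusted p = 0.0077). The median over the 20 was 0.04. With the B-cell marker sum in the fit none of these 8 genes was called (limma adjusted p from 0.254 to 0.907) and each kept its direction. The standard errors rose, and the differences were 1.58 (SE 0.64) for Itgb3, -1.75 (0.60) for Cd226, -0.62 (0.25) for Thy1, 0.78 (0.26) for Cytip and -0.71 (0.43) for Zyx, with Icam1 at -0.73, Flna at 0.40 and Fyn at 0.36.

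**Figure D5:**
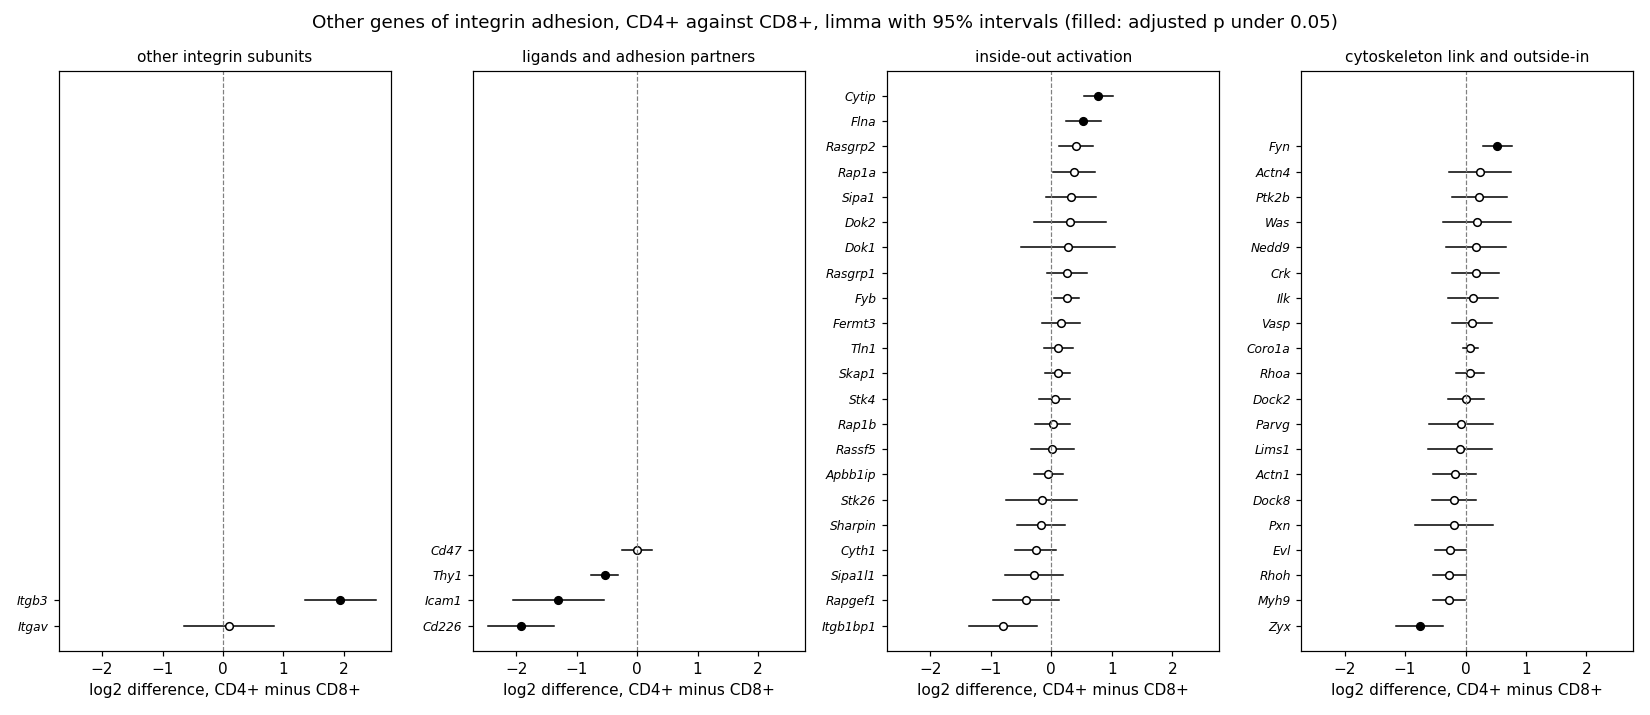
Log2 differences CD4+ minus CD8+ (x axis) with 95% intervals from limma for the tested genes of 4 lists of integrin adhesion; filled points passed an adjusted p of 0.05. Itgb3, Cytip, Flna and Fyn are filled to the right of 0, and Cd226, Icam1, Thy1 and Zyx to the left, while the median over the inside-out list is 0.11 and over the cytoskeleton list 0.04.

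The 4 lists held 2, 4, 22 and 20 genes tested within each housing. Within EE, the called genes of the lists were Itgb3, Cd226, Thy1, Cytip and Zyx, beside 2.66% of all genes tested. Within SE they were Itgb3, Cd226 and Cytip, beside 1.51% of all genes tested. Within EE, Thy1 was not called without CD4+ EE replicate 5 (limma adjusted p = 0.0752), CD8+ EE replicate 3 (0.0542) or CD8+ EE replicate 4 (0.0513). Within SE, Cd226 was not called without CD8+ SE replicate 1 (limma adjusted p = 0.0713), Itgb3 without CD8+ SE replicate 1 (0.0616) or 2 (0.0565), and Cytip without CD8+ SE replicate 2 (0.0558). With the B-cell marker sum in the fit, none of these calls was made within EE (limma adjusted p from 0.199 to 0.423) or within SE (0.396 to 0.709). Blocking on the mouse within SE brought Itgb3 to an adjusted p of 0.122 (limma, 1.69) and Cytip to 0.176 (0.62). Fyn had the smallest p of the cytoskeleton list within SE (0.57, limma adjusted p = 0.108). Between EE and SE, no gene of the 4 lists was called in either population. The genes with the smallest p of their own list in CD4+ cells were Zyx (-0.66, limma adjusted p = 0.829), Rap1a (-0.48, 0.835), a small GTPase upstream of talin, Icam1 (0.99, 0.861) and Itgb3 (-0.06, 0.987). In CD8+ cells they were Myh9 (-0.39, limma adjusted p = 0.923), a myosin heavy chain, Tln1 (-0.31, 0.962), Cd226 (0.44, 0.962) and Itgav (-0.45, 0.987). For the interaction they were Ilk, Sharpin, Cd47 and Itgav, each with a limma adjusted p of 0.994.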

How the data were processed

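RNA of sorted spleen T cells was copied with template switching and UMIs and sequenced on an Ion Proton. The authors trimmed reads with cutadapt, aligned them with STAR 2.4.0a to mm10, counted unique molecules per gene with Drop-seq tools on an Ensembl model of GRCm38, excluded samples by purity, removed low-abundance genes (limit not given in the sources used here) and divided by DESeq2 size factors. The deposited signal is therefore normalized molecule counts for 12994 genes in 21 samples. Dividing each column by its smallest step returned whole molecules for 100% of values within 0.0001 molecules. Depth was 145546 to 190885 molecules in CD4+ and 179008 to 221454 in CD8+ samples, so a gene at 3 molecules or fewer carries a large counting error.

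Samples were grouped by the labels. limma 3.58.1 in R 4.3.3 (trend, not robust) was fitted on log2(value + 1) over all genes with a mean above 2, with Benjamini-Hochberg adjustment and a threshold of 0.05. Populations, populations within each housing and the interaction came from 1 fit of 4 groups (21 samples), and EE against SE from a fit within each population. Alternatives were a pseudocount of 0.5, no filter, a mean above 10, equal totals, edgeR 4.0.16 and DESeq2 1.42.0 on molecules, a replicate block, and each sample left out. Named were the 8 genes, called genes of 4 adhesion lists (up to 6 per list and comparison, otherwise the smallest p), and the 3 genes most like a called member. Itgav, Itga2b, Cd47, Fermt3 and Cerkl were named beyond that rule after their values were seen. The 8 genes and all lists were chosen with earlier results of these data known. Positions are from GENCODE M21 on GRCm38, which matches the study's build. Code was tested on simulated data.

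CD4+ and CD8+ samples of 1 mouse are paired by the labels (9 mice). Their deviations from group means hardly moved together (correlation -0.0149 to 0.0354), and replicates differed beyond sampling noise in 46 of 46 pairs.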

Additional observations from a re-analysis of the deposited data

Results flagged for a closer look

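In 4 of 36 groups tested, 1 sample stood apart from the rest by Dixon's criterion, where chance gives about 1.8. Itgb7 was 96.5 normalized counts in CD4+ EE replicate 2, with the next sample at 76.8 and the lowest at 65.8. Itga6 was 0 in CD4+ EE replicate 1, where the other 5 samples reached up to 13.4. Itgae was 0.915 in CD4+ SE replicate 3, a single molecule, and 0 in the other CD4+ SE samples. Icam2 was 14.6 in CD8+ EE replicate 6, with the others from 18.4 to 20.3; this is 1 of the 2 libraries in which red-cell markers were high.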

How the results depend on the processing

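Of 2041 values of single genes recomputed under the alternatives, 1930 kept their direction and side of the threshold, 37 lost a call, 3 gained one and 71 changed sign, all of these among genes that were not called. Low counts limit Itgae in CD4+ cells (0 or 1 molecule per sample), Itgb1 in CD8+ cells (2 to 18) and Itga6 (0 to 15). Under each scaling alternative the median of all genes lay within 0.02 of 0 on the log2 scale.

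With a mean above 10 required, 216 genes were called between populations and 76 within SE, and of the 8 genes 1 was called between populations, 1 within EE and 0 within SE, since Itga6 and Itgae fell under that filter. With the B-cell marker sum in the fit, 43, 40 and 24 genes were called between populations, within EE and within SE, and of the 8 genes 1 (Itgae) between populations and 1 within EE, where Itgb1 was at 1.39 (limma adjusted p = 0.352); the sum barely overlapped between populations. Between EE and SE in CD4+ cells, the 1 gene called in the main fit was S100a6. There 0 genes were called with a pseudocount of 0.5, no filter, a mean above 10, a replicate block, all 21 samples in the fit or the B-cell term, and 2 with edgeR. Likewise 0 were called without CD4+ EE replicate 2, 4 or 5 and without CD4+ SE replicate 1 or 5.

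The block on the mouse left 311 genes called between populations, 261 within EE and 99 within SE and changed no call of the 8 genes. EE and SE mice share only a number (mean correlation of same-numbered samples 0.0083 in CD4+ and 0.0052 in CD8+ cells), and a replicate block on that number called 2 genes in CD8+ cells. Under the block, Itga4 turned to -0.0000 between populations, -0.0252 within SE, -0.0612 in CD8+ EE against SE and 0.0503 for the interaction, Itgb2 to -0.0127 in CD8+ cells, and the interaction to 0.0070 for Itgal and 0.0254 for Itga6.

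Under the B-cell term Itga4 turned to -0.2887, -0.2876 and -0.2898 between populations, within EE and within SE, and the interaction to 0.0022 for Itga4, 0.0343 for Itga6 and -0.0523 for Icam2. Without both red-cell libraries, Icam2 turned to -0.0728 within SE, Itgb7 to 0.0112 in CD8+ EE against SE, and the interaction to 0.0452 for Itgal and 0.3251 for Itga6. The interaction of Itga6 was also 0.0063 with equal totals, 0.4288 with edgeR and 0.4270 with DESeq2, and Itga4 in CD4+ EE against SE was 0.0033 with DESeq2. The cause of these changes was not tested.

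With each sample left out in turn, 300 to 362 genes were called between populations, 163 to 219 within EE, 87 to 126 within SE and 0 to 3 between EE and SE in either population. Of the 8 genes, 2 to 3 were called between populations and within EE, 1 to 2 within SE and 0 between EE and SE. Between populations Itgb1 ranged from 1.45 to 1.75 and Itgae from -3.50 to -3.29. The ranges that crossed 0 within EE were -0.0216 to 0.3042 for Itgal, -0.0015 to 0.1052 for Itgb2 and -0.0674 to 0.1171 for Itga4. Within SE they were -0.0160 to 0.1690 for Itga4 and -0.0728 to 0.4508 for Icam2. In CD4+ EE against SE they were -0.1049 to 0.0821 for Itga4, -0.6993 to 0.0696 for Itga6 and -0.2438 to 0.1886 for Itgb3. In CD8+ cells they were -0.0032 to 0.1519 for Itgb2, -0.0128 to 0.1096 for Itga4 and -0.0548 to 0.0246 for Itgb7. For the interaction they were -0.2273 to 0.1008 for Itgal, -0.1438 to 0.0432 for Itga4, -0.3012 to 0.6017 for Itga6 and -0.2342 to 0.3287 for Icam2.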
